A study of Mus musculus with 10 samples.

Results

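Nucleolar ribosome biogenesis factors are the proteins that transcribe, modify, cut and fold ribosomal RNA on its way into a ribosome. The 44 genes described here were taken from a list of symbols. They comprise subunits and a partner of RNA polymerase I, abundant nucleolar proteins, and core and associated proteins of small nucleolar ribonucleoproteins (snoRNPs). Assembly factors of the small and the large ribosomal subunit make up the rest. All 44 were found on the array among 18193 genes with a probe set, and all 44 were bright enough to enter the test, which covered 12251 genes. Where a gene had several probe sets, the brightest over the 10 arrays stood for it. No rule based on measured values chose the symbols. Results of these data were known when the list was drawn up, so it was not blind to them.

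Their transcripts were measured in splenic B cells of C57BL/6 littermates, 12 weeks old, that carried either both intact copies of Irf4 (Irf4+/+) or none (Irf4-/-), with 5 arrays for each genotype. Irf4 encodes a transcription factor that B cells induce when they are activated. Cells left after magnetic removal of non-B cells spent 3 days in RPMI with 10% FBS, anti-mouse CD40 antibody (labelled as 1 mg/ml) and IL-4 (20 ng/ml); both genotypes received the same agents, and no unstimulated cells were included. The sources used here do not say how the Irf4 alleles were disrupted. They also leave out whether a genotype's 5 samples were separate mice or cultures; the p-values then reflect only sample-to-sample spread, part or all of which could be technical.

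Ribosomes are built in the nucleolus. RNA polymerase I copies the ribosomal DNA repeats into a long precursor; guide RNAs held in box C/D and box H/ACA snoRNPs direct its methylation and pseudouridylation, and large assemblies then cut and fold it into the precursors of the small and the large subunit. A resting B cell has a small nucleolus, and stimulation through CD40 and the IL-4 receptor is followed by growth of the cell and its nucleolus before division. Many genes of this pathway are known targets of the transcription factor MYC.

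Of the 44 genes, 43 were lower in Irf4-/- samples, 0 were higher, and 1, Polr1c, was not called in either direction, where called means an adjusted p under 0.05 in limma over all 12251 genes. Across all genes tested, 23.9% were called lower and 23.4% higher. The median log2 fold change of the 44 genes was -0.67, which is 1.59-fold lower, with quartiles of -0.85 and -0.50; the median of all genes tested was 0.004. For 40 of the 44, every Irf4-/- array lay below every Irf4+/+ array, against 18.3% of all genes. The exceptions were Polr1c, Tcof1, Pes1 and Gtpbp4.

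Most of the changes were moderate and close to each other in size. A fall of at least 1.25-fold was seen for 39 of the 44 genes (21.6% of all genes tested) and one of at least 1.5-fold for 28 (9.2%). Only Gnl3, Nolc1 and Mybbp1a of the 44 were called at least 2-fold lower, against 2.62% of all genes. The sizes ran from -1.34 (Gnl3) to -0.15 (Polr1c) on the log2 scale. All fold changes are on the scale of log2(signal + 7.9), and percentages of the Irf4+/+ level are computed from them. Because these are bulk samples, fewer cells of a type and less RNA per cell cannot be told apart.

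**Figure D1:**
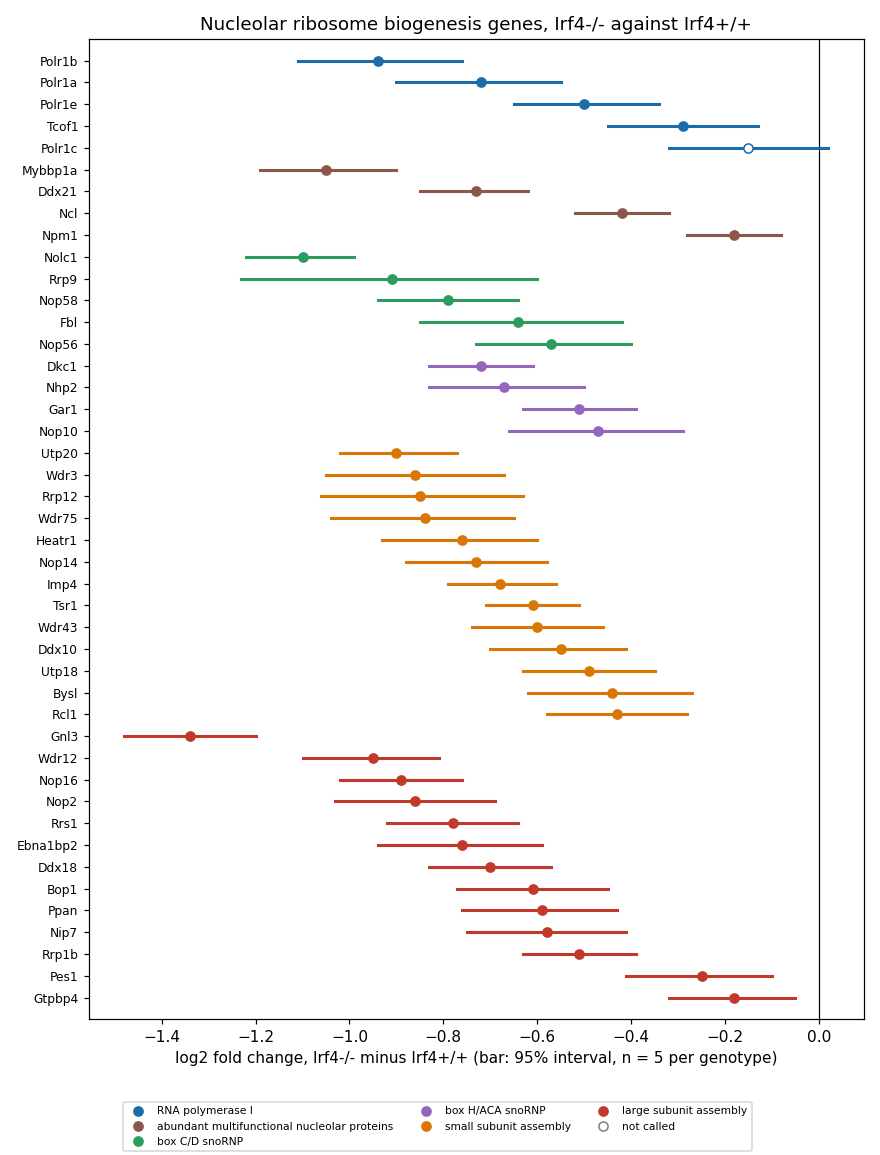
The plot shows the log2 fold change, Irf4-/- minus Irf4+/+, of each of the 44 genes with its 95% interval (n = 5 arrays per genotype), coloured by role, and the vertical line marks 0. All 44 points lie left of 0, from -1.34 (Gnl3) to -0.15 (Polr1c), and the interval of Polr1c alone, drawn as an open circle, reaches past 0.

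The promoters of these genes were read from RefSeq sequence of assembly GRCm38.p6, as windows from 250 bases before to 50 bases after the annotated start; 38 of the 44 genes matched, and a gene counts if any of its windows holds a motif on either strand. The E-box letters CACGTG, the site bound by MYC with its partner MAX, were found for 8 of 38 genes (21.1%), for 17.9% of the other ribosome biogenesis genes, for 11.5% of 9923 tested genes with a window and for 8.09% of all 27025 genes in the table. The letters CCGGAAGT, a site of ETS family factors, were found for 10 (26.3%), against 26.5% of the other ribosome biogenesis genes, 8.9% of tested genes and 4.31% of the whole table. The windows below are those of members whose match lies wholly upstream of the start, with the matching letters in capitals; all read 5′ to 3′ along the strand of the gene. The first 3 hold the E-box and the last 5 the ETS letters, which in Gar1 lie on the other strand; Polr1c is the member that was not called:
Nop2, chr6:125131796-125131855, plus strand: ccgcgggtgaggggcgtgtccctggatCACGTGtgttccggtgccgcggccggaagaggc
Imp4, chr1:34439681-34439740, plus strand: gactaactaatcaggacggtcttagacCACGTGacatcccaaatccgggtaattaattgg
Utp18, chr11:93885767-93885826, minus strand: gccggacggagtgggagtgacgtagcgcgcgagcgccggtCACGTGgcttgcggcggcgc
Heatr1, chr13:12395315-12395374, plus strand: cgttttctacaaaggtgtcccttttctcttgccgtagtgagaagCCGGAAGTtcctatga
Nhp2, chr11:51619713-51619772, plus strand: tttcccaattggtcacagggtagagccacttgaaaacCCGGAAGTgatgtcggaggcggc
Nip7, chr8:107056747-107056806, plus strand: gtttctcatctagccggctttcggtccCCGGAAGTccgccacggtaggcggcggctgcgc
Gar1, chr3:129831408-129831467, minus strand: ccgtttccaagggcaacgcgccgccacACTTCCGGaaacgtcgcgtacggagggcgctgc
Polr1c, chr17:46248055-46248114, minus strand: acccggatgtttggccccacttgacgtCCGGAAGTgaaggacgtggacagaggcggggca

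Median changes were close with and without either motif. The 8 genes with an E-box (Imp4, Mybbp1a, Nop2, Pes1, Tsr1, Utp18, Utp20 and Wdr43) had a median log2 fold change of -0.64 and ran from -1.05 to -0.25; the 30 without had a median of -0.71 and ran from -1.34 to -0.15. The 10 genes with the ETS letters (Ebna1bp2, Gar1, Heatr1, Nhp2, Nip7, Polr1c, Polr1e, Ppan, Tsr1 and Wdr3) had a median of -0.60 and the 28 without -0.72. Tsr1 held both motifs, and 21 genes held neither, among them Gnl3.

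Short core letters of the interferon-stimulated response element bound by IRF factors, GAAANNGAA, were found for 2 of 38 genes (5.26%). The shares were 11.1% of the other ribosome biogenesis genes, 8.45% of tested genes and 9.76% of the whole table. The core letters of the composite element of ETS and IRF factors, GGAANNGAA, were found for 4 (10.5%), against 11.1%, 8.86% and 9.42%. Longer forms of these elements were not searched. The composite letters can overlap both the ETS site and the response element. An E-box variant, CATGTG, was found for 8 genes (21.1%), against 9.4% of the other ribosome biogenesis genes, 10.8% of tested genes and 15.9% of the whole table. The NRF1 letters GCGCATGC were found for 0 genes, against 10.3% of the other ribosome biogenesis genes, 5.85% of tested genes and 3.05% of the whole table. The median GC content of the windows was 57.3% for the members and 60.3% for tested genes. A match describes letters in a window and does not show binding.

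At the first step of the pathway, 4 of 5 genes of the RNA polymerase I group were lower in Irf4-/- samples, with a group median of -0.50. Polr1b, the second-largest subunit of the enzyme, gave signals of 653, 650, 667, 645 and 589 on the Irf4+/+ arrays and of 274, 347, 360, 372 and 312 on the Irf4-/- arrays. The genotypes stood well apart, with Irf4-/- samples at 52.3% of the Irf4+/+ level (log2 fold change -0.94, SE 0.0832, adjusted p = 9.95e-08). Polr1a, the largest subunit, was 1.65-fold lower, from 511 ± 49.3 to 306 ± 23.2 (SD, n = 5; adjusted p = 1.68e-06). Polr1e, a subunit found in RNA polymerase I alone, was 1.41-fold lower, from 456 ± 14.6 to 322 ± 29.4 (adjusted p = 3.62e-05).

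Polr1c, a subunit that RNA polymerase I shares with RNA polymerase III, was the gene that was not called. Its signals were 2088, 1527, 1798, 1746 and 1737 in Irf4+/+ and 1735, 1632, 1508, 1399 and 1705 in Irf4-/- samples. The ranges overlapped: Irf4+/+ replicate 2 was below 3 of the Irf4-/- arrays, and without that array the gene was called lower (log2 fold change -0.21, adjusted p = 0.0378). With all arrays the log2 fold change was -0.15 with a 95% interval from -0.32 to 0.02 (adjusted p = 0.128), and its second probe set gave -0.11 (adjusted p = 0.14).

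Tcof1, which encodes treacle, a nucleolar partner of RNA polymerase I transcription that is mutated in Treacher Collins syndrome, gave 1035, 1152, 1258, 1065 and 1152 in Irf4+/+ and 942, 814, 1062, 951 and 856 in Irf4-/- samples. Irf4-/- replicate 3 reached into the Irf4+/+ range. The gene was called lower at -0.29 (SE 0.0759, adjusted p = 0.00433) from its brightest probe set, but not from either of its other probe sets, which gave -0.19 (adjusted p = 0.121) and 0.00 (adjusted p = 0.965). The brightest one is of a type that can match more than 1 transcript, and with such probe sets left out the gene was not called (0.00, adjusted p = 0.963).

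All 4 abundant multifunctional nucleolar proteins were lower, with a group median of -0.58 and a wide spread of sizes. Mybbp1a, a MYB-binding protein that takes part in ribosomal RNA synthesis and processing, gave 4192, 4382, 5509, 4708 and 4638 in Irf4+/+ and 2295, 2309, 2043, 2238 and 2404 in Irf4-/- samples. The lowest Irf4+/+ array was far above the highest Irf4-/- array, and the fall was 2.07-fold (log2 fold change -1.05, SE 0.0693, adjusted p = 2.75e-09). Ddx21, an RNA helicase of the nucleolus, was 1.66-fold lower, from 1918 ± 72.1 to 1151 ± 52.9 (SD, n = 5; adjusted p = 8.38e-09).

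The pair of proteins best known as nucleolar markers changed less. Ncl, nucleolin, is an RNA-binding protein that coats nascent ribosomal RNA. It gave 12406, 13178, 12781, 12641 and 11901 in Irf4+/+ and 9026, 9366, 9567, 9282 and 9765 in Irf4-/- samples. The Irf4-/- samples were at 74.8% of the Irf4+/+ level (-0.42, SE 0.0452, adjusted p = 9.23e-07). Npm1, nucleophosmin, a chaperone that shuttles between nucleolus and cytoplasm, gave 14074, 14827, 15217, 14522 and 14958 in Irf4+/+ and 13416, 13193, 12972, 12010 and 13498 in Irf4-/- samples. For Npm1 the groups were apart by a narrow margin, and the fall of 1.13-fold (-0.18, SE 0.0469, adjusted p = 0.00483) was among the smallest of the called genes. Whether signals of this height were saturated was not tested.

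**Figure D2:**
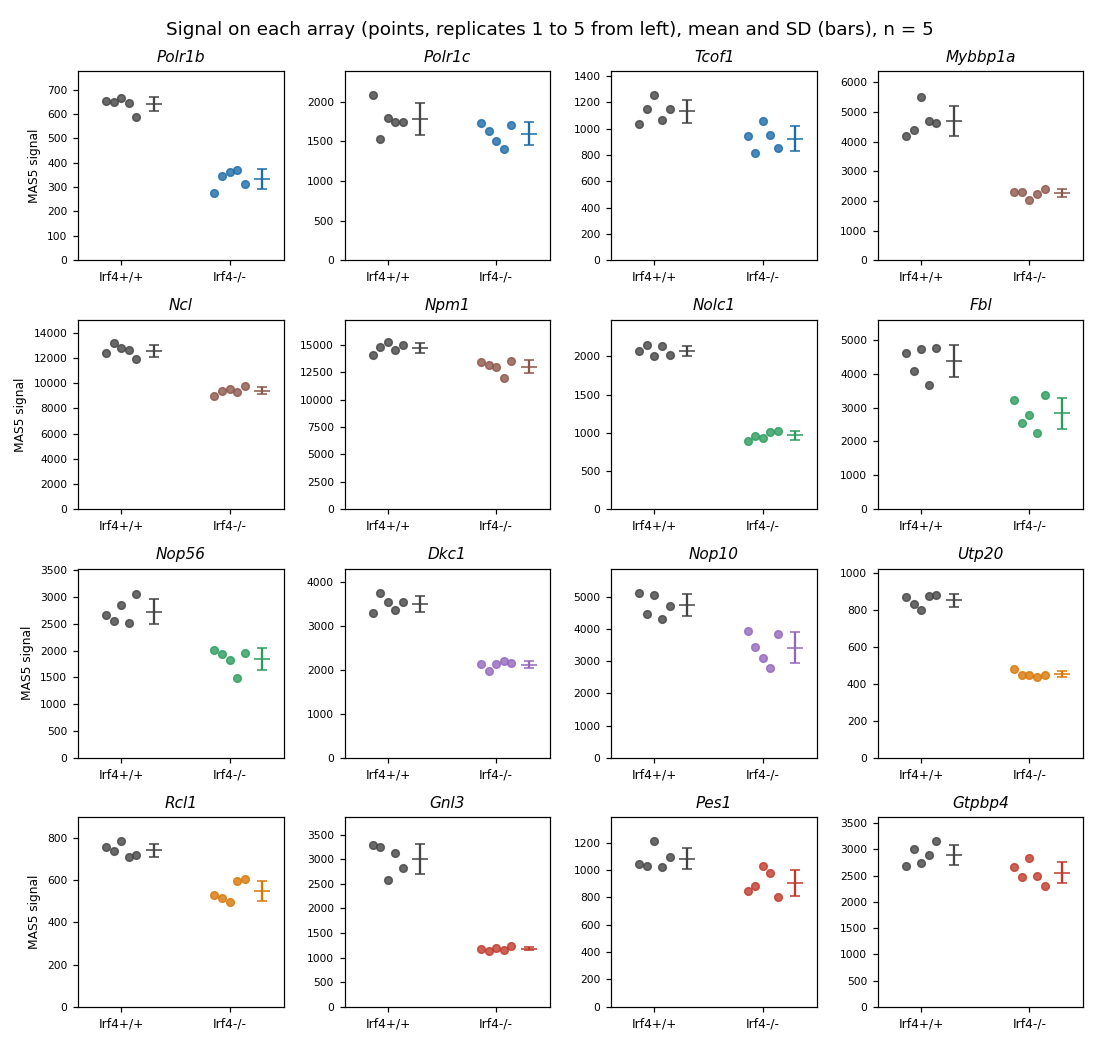
MAS5 signal (vertical axes, from 0) of 16 genes on each of the 5 Irf4+/+ (grey) and 5 Irf4-/- arrays (coloured by role), with replicates 1 to 5 from left to right and the mean and SD beside the points. For Gnl3 the Irf4-/- arrays lie between 1142 and 1228 and the Irf4+/+ arrays between 2582 and 3281, whereas the points of Polr1c, Tcof1, Pes1 and Gtpbp4 overlap between the genotypes.

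Box C/D snoRNPs carry the guide RNAs for 2′-O-methylation. All 5 genes placed in this group were lower without overlap, with the largest median change of the 6 role groups (-0.79). That median includes Nolc1, which was placed here although it escorts snoRNPs in general, and which had the group's largest change (-1.10). Differences between the role groups were not tested. Nolc1, also called Nopp140, a phosphoprotein that escorts snoRNPs through the Cajal body and nucleolus, gave 2068, 2143, 2003, 2134 and 2019 in Irf4+/+ and 895, 954, 935, 1008 and 1026 in Irf4-/- samples. Every Irf4-/- array was below the Irf4+/+ range by a wide gap (2.14-fold, -1.10, SE 0.0542, adjusted p = 8.08e-11). Fbl, fibrillarin, the methyltransferase of these particles, gave 4608, 4078, 4729, 3679 and 4763 against 3213, 2529, 2771, 2252 and 3368, and was 1.55-fold lower (-0.64, SE 0.101, adjusted p = 6.39e-05). In Fbl the arrays within each genotype were spread more widely, but did not overlap between genotypes.

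The core proteins Nop56 and Nop58 bind the guide RNA together with fibrillarin. Nop56 gave 2674, 2553, 2853, 2508 and 3061 in Irf4+/+ and 2010, 1946, 1832, 1497 and 1951 in Irf4-/- samples, the smallest change of the group (1.48-fold, -0.57, SE 0.0793, adjusted p = 1.73e-05). Nop58 was 1.73-fold lower, from 1303 ± 130 to 747 ± 41.3 (SD, n = 5; adjusted p = 1.33e-07). Rrp9, the protein specific to the U3 snoRNP, was 1.89-fold lower, from 454 ± 107 to 236 ± 46.1 (adjusted p = 8.33e-05), and was the noisiest of the 44 genes in both genotypes, with a coefficient of variation of 23.6% in Irf4+/+ and 19.5% in Irf4-/- samples.

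Box H/ACA snoRNPs guide pseudouridylation, and their 4 core proteins, which also sit in telomerase, were all lower (median -0.59). Dkc1, dyskerin, the pseudouridine synthase, gave 3293, 3742, 3542, 3367 and 3548 in Irf4+/+ and 2146, 1972, 2142, 2202 and 2165 in Irf4-/- samples. The Irf4-/- samples were at 60.9% of the Irf4+/+ level (-0.72, SE 0.052, adjusted p = 9.03e-09). Nop10, the smallest of the core proteins, gave 5104, 4460, 5048, 4321 and 4724 against 3947, 3448, 3091, 2795 and 3834 (1.39-fold, -0.47, SE 0.0853, adjusted p = 0.000209). Neither gene overlapped between genotypes. Between these sizes lay Nhp2, from 5018 ± 435 to 3162 ± 349 (1.59-fold), and Gar1, from 2570 ± 136 to 1802 ± 116 (1.43-fold; SD, n = 5; adjusted p = 2.33e-06 and 1.62e-06).

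All 13 small subunit assembly genes were lower, all without overlap, with a median of -0.68 and a range from -0.90 to -0.43. Utp20, a large scaffold of the small subunit processome, had the largest change of the group: 867, 831, 796, 875 and 882 in Irf4+/+ against 479, 447, 450, 436 and 448 in Irf4-/- samples (1.87-fold, SE 0.0589, adjusted p = 2.4e-09). Rcl1, a processome protein related to RNA cyclases, had the smallest: 755, 739, 782, 707 and 716 against 529, 513, 497, 597 and 604 (1.35-fold, SE 0.0692, adjusted p = 7.02e-05). Even for Rcl1 the highest Irf4-/- array was below the lowest Irf4+/+ array by more than the SD of either group, which was 30.1 and 49.3.

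Heatr1, Wdr75 and Wdr43 belong to the UTP-A complex, which joins the precursor while it is being transcribed, and Wdr3 and Utp18 to the UTP-B complex, which follows. Heatr1 fell 1.70-fold (1374 ± 118 to 807 ± 88.7), Wdr75 1.80-fold (1427 ± 220 to 787 ± 79.6) and Wdr43 1.51-fold (2142 ± 186 to 1411 ± 85.5; SD, n = 5). Wdr3 fell 1.82-fold and Utp18 1.40-fold. Imp4, which holds the U3 snoRNA on the precursor, fell 1.60-fold by its brightest probe set, from 1078 ± 49.4 to 671 ± 10.9. The 1.62% coefficient of variation of that probe set over the Irf4-/- arrays was the lowest of the 44 genes there. The second Imp4 probe set was not called (-0.08, adjusted p = 0.522).

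Nop14, a processome protein, fell 1.66-fold, and Rrp12, a repeat protein that acts in export of the subunits, fell 1.80-fold (258 ± 17 to 140 ± 18.4). Ddx10, an RNA helicase, fell 1.47-fold. Tsr1, a GTPase-like factor of late cytoplasmic maturation, fell 1.52-fold (2154 ± 53.4 to 1412 ± 37.5), and Bysl, bystin, which binds the maturing small subunit, 1.36-fold. The highest adjusted p in this group was 0.000309, for Bysl.

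All 13 large subunit assembly genes were called lower, and 11 without overlap, with a median of -0.70. This group held the strongest of the 43 falls and, beside Npm1, the weakest. Gnl3, nucleostemin, a nucleolar GTPase abundant in dividing and stem cells, gave 3281, 3254, 2582, 3118 and 2814 in Irf4+/+ and 1172, 1142, 1195, 1160 and 1228 in Irf4-/- samples. Irf4-/- samples held 39.5% of the Irf4+/+ level, and their 5 values were close together (log2 fold change -1.34, SE 0.066, adjusted p = 8.08e-11). Gtpbp4, a GTPase that travels with the large subunit precursor, gave 2682, 3003, 2741, 2886 and 3166 against 2671, 2470, 2827, 2490 and 2308. For Gtpbp4 the ranges overlapped, and the fall of 1.13-fold (-0.18, SE 0.0635, adjusted p = 0.0264) was lost without Irf4+/+ replicate 2 or 5 or Irf4-/- replicate 2 or 5 (adjusted p from 0.0588 to 0.0759) and after quantile normalization (adjusted p = 0.0669).

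Pes1, Bop1 and Wdr12 form the PeBoW complex, which is needed to mature the 28S and 5.8S ribosomal RNAs, and their transcripts changed by different amounts. Pes1 gave 1045, 1032, 1210, 1023 and 1096 in Irf4+/+ and 844, 880, 1032, 975 and 804 in Irf4-/- samples. Irf4-/- replicate 3 lay inside the Irf4+/+ range (-0.25, 95% interval -0.41 to -0.10, adjusted p = 0.00978). With the mean of its probe sets in place of the brightest, Pes1 was not called (0.09, adjusted p = 0.328). Its other probe set, which was dimmer, was called higher (0.44, adjusted p = 0.0154). Bop1 fell from 970 ± 86.5 to 633 ± 48.2 (-0.61, 95% interval -0.77 to -0.45) and Wdr12 from 723 ± 46 to 370 ± 22.5 (SD, n = 5; -0.95, 95% interval -1.10 to -0.81). The 3 intervals did not overlap each other. Probe sets can compress a change to different degrees, and the differences between these genes were not tested.

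The other large subunit genes lay between these sizes. Nop16, found in early large subunit precursors, fell 1.85-fold (979 ± 12.7 to 525 ± 39.6), Nop2, a methyltransferase of 28S ribosomal RNA, 1.81-fold (1045 ± 68.6 to 575 ± 64.7), and Rrs1, which brings the 5S particle to the precursor, 1.71-fold (2584 ± 187 to 1504 ± 109; SD, n = 5). Ebna1bp2 fell 1.70-fold. Ddx18, an RNA helicase, fell 1.62-fold by its brightest probe set, and its further probe sets were not called (-0.20 and -0.21). Ppan, Nip7 and Rrp1b fell 1.51-, 1.49- and 1.42-fold. Their adjusted p was at most 1.83e-05, for Nip7.

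**Figure D3:**
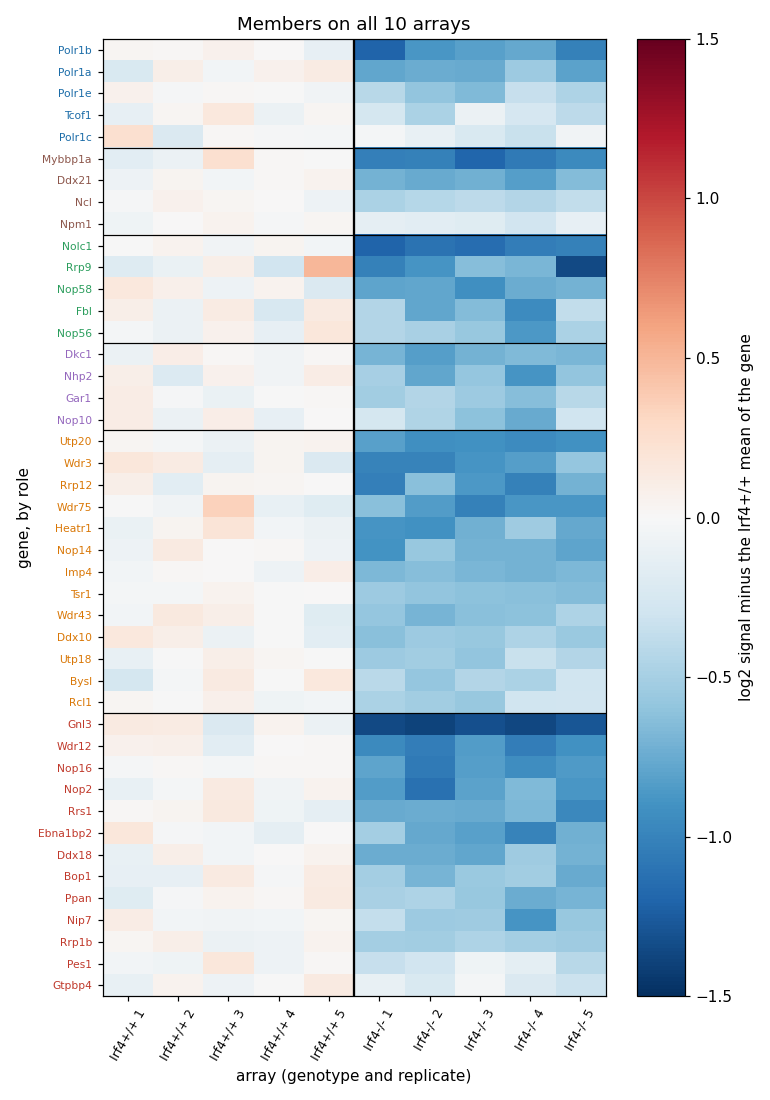
Each cell is the log2 signal of a gene on an array minus the mean of that gene over the 5 Irf4+/+ arrays, with blue below and red above that mean; rows are the 44 genes by role, columns the 10 arrays. The Irf4-/- columns are blue in nearly all rows, with per-array medians from -0.70 to -0.60, and the palest rows are Polr1c, Npm1, Gtpbp4, Pes1 and Tcof1.

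The difference was seen on every Irf4-/- array. The median log2 distance of the 44 genes from their Irf4+/+ means was -0.60, -0.70, -0.66, -0.68 and -0.66 on Irf4-/- replicates 1 to 5, and between -0.02 and 0.03 on the 5 Irf4+/+ arrays. The median SD of a gene over the arrays of a genotype was 0.10 (Irf4+/+) and 0.11 (Irf4-/-) on the log2 scale. Among Irf4-/- arrays, replicate 4 was the lowest for 14 genes, including Fbl, Nop56, Nhp2, Gar1, Nop10 and Npm1, and the highest for 10, including Polr1a, Polr1b, Polr1e and Heatr1, and was thus neither low nor high throughout. Among Irf4+/+ arrays, replicate 3 was the highest for 13 genes and replicate 4 for 0.

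The probe sets not chosen mostly gave the same direction. The 44 genes had 92 probe sets on the array, of which 86 were bright enough to be fitted; 73 of the 86 were called lower, against 21.4% of 22533 fitted probe sets. Of the 42 further probe sets, in 31 genes, 30 were called lower, 11 were not called and 1 was called higher. That one belongs to Pes1 and was dim, at 83.2 in Irf4+/+ and 115 in Irf4-/- samples (0.44, adjusted p = 0.0154). Its arrays did not overlap between genotypes (69.3 to 102 in Irf4+/+, 103 to 128 in Irf4-/-), unlike those of the brightest Pes1 probe set. Rrp1b, a nucleolar partner of the large subunit precursor, differed most in the other direction: its brightest probe set gave -0.51 and another -1.21, from 794 to 340 (adjusted p = 5.16e-08). The further probe sets of Ncl gave -0.51, -0.65, -0.80 and -0.19, the last of them not called (adjusted p = 0.0508). Not all of those not called were dim. The second probe set of Imp4 gave 411 in Irf4+/+ and 388 in Irf4-/- samples (-0.08, adjusted p = 0.522). Neither further probe set of Ddx18 was called. They gave 815 and 707 (-0.20, adjusted p = 0.149) and, dimmer, 119 and 102 (-0.21, adjusted p = 0.272).

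**Figure D4:**
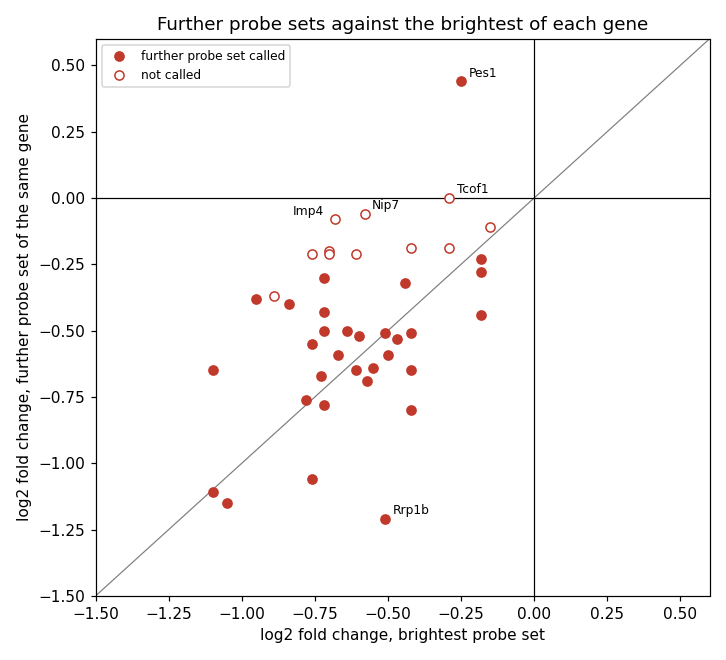
Each point is a further probe set of 1 of the 44 genes, with the log2 fold change of the brightest probe set of that gene on the horizontal axis and its own on the vertical axis; filled points were called, and the diagonal marks equal values. Of 42 points 30 are called and lie below 0, a single filled point lies above 0 (Pes1, 0.44), and Rrp1b at -1.21 lies farthest below the diagonal.

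The rest of the pathway was examined in a list of 142 other ribosome biogenesis genes, 135 of them tested. Of these, 102 were lower in Irf4-/- samples (75.6%), 9 were higher and 24 were not called, with a median of -0.47. The counts were 38 lower and 1 higher of 47 small subunit genes (median -0.51), 39 lower and 5 higher of 50 large subunit genes (-0.44), 8 lower and 1 higher of 10 snoRNP assembly genes (-0.53), and 11 lower and 0 higher of 13 genes of the RNA exosome and its partners (-0.40). The remaining RNA polymerase I genes were mixed, with 6 lower and 2 higher of 15 and a median of -0.14.

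Of these genes, 5 were called at least 2-fold lower. Ruvbl2, an ATPase of the chaperone complex that assembles box C/D snoRNPs, fell 2.46-fold, from 2606 ± 196 to 1053 ± 57.7 (SD, n = 5; adjusted p = 5.4e-11), and Naf1, which loads box H/ACA particles, fell 2.21-fold, from 1628 ± 89.8 to 733 ± 55.7. Noc2l and Nle1 of the large subunit pathway fell 2.22- and 2.04-fold. Lyar, a nucleolar zinc finger protein, fell 2.18-fold. Noc4l of the small subunit pathway, the sixth by size, fell from 1875 ± 486 to 925 ± 184, just short of 2-fold.

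The 9 rises were smaller than these falls. Nop53, which helps process the large subunit precursor, rose 1.37-fold (4408 ± 214 to 6021 ± 296; adjusted p = 2e-06), Zfp622, a factor of cytoplasmic large subunit precursors, 1.32-fold, Nsa2 1.28-fold and Sbds, the Shwachman-Diamond syndrome protein that acts in the last step of large subunit maturation, 1.25-fold (734 ± 85.5 to 917 ± 92.5; SD, n = 5; adjusted p = 0.00631). Ddx54 rose 1.26-fold, Sirt7, a deacetylase linked to RNA polymerase I, 1.17-fold, and Pno1 1.16-fold. Pih1d1, at 1.15-fold (adjusted p = 0.0456), lost its call under most alternative settings, including most fits that left out an array. The values of Pih1d1, Nsa2 and Sbds overlapped between genotypes. The ninth, named after its values were seen, was Ubtf, the factor that keeps ribosomal DNA open for RNA polymerase I, at 1.15-fold (1066 ± 41.7 to 1226 ± 18.9; adjusted p = 0.0036). Nop53, Zfp622 and Ubtf each lost the call under another choice of probe set (adjusted p = 0.274, 0.199 and 0.0821).

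The ribosomal proteins are what the members assemble with ribosomal RNA. Of 45 tested cytosolic ribosomal protein genes, 3 were lower and 9 higher, 33 were not called, and the median was 0.07, or -0.01 after quantile normalization and -0.12 over the 22 genes left without shared probe sets. The 3 that fell, named after their values were seen, were Rpl12 (-0.99), Rps27l (-0.62) and Rps25 (-0.38). Ribosomal protein genes have many near-identical pseudogenes that probe sets may not tell apart. Of 73 mitochondrial ribosomal protein genes, 38 were lower and 4 higher, with a median of -0.22.

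**Figure D5:**
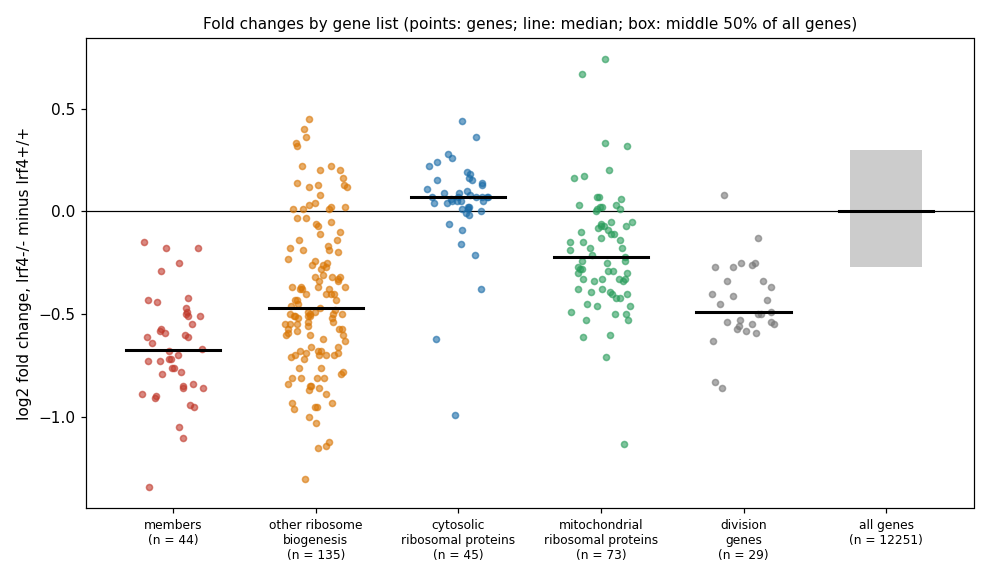
Each point is the log2 fold change of a gene, Irf4-/- minus Irf4+/+, in 5 lists, with a line at the list median; the grey box runs between the quartiles of all 12251 genes, -0.27 and 0.30. The 44 members (median -0.67) and the 135 other ribosome biogenesis genes (-0.47) lie mostly below the box, the 45 cytosolic ribosomal protein genes lie around 0 (0.07, and -0.01 after quantile normalization), and the 29 division genes lie at -0.49.

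Myc itself was lower. Its signals were 2646, 2607, 2608, 2543 and 2781 in Irf4+/+ and 1366, 1147, 1141, 1164 and 1206 in Irf4-/- samples, 45.7% of the Irf4+/+ mean (log2 fold change -1.13, adjusted p = 1.38e-10), with no overlap. Whether the change in Myc and those of the 44 genes are linked was not tested. Irf4 transcript was still measured at 74.2% of the Irf4+/+ mean in Irf4-/- samples (-0.43, adjusted p = 5.01e-06); the sources used here do not place its probe set relative to the disrupted part, and the signal is therefore no check of the genotype.

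Genes of cell division were mostly lower too. Of 29 tested, 27 were lower (93.1%, against 23.9% of all genes) and 0 were higher (against 23.4%). Pcna (-0.13, adjusted p = 0.0817) and Ccnb2 (0.08, adjusted p = 0.318) were not called, and the list median was -0.49. The part of this difference in the results on the 44 genes was not tested.

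Many small nucleolar RNAs lie in introns of genes for nucleolar proteins and are released when the host transcript is spliced. By position in the RefSeq gene table, without regard to strand, 8 of 44 members (18.2%) span at least 1 small nucleolar RNA gene, against 267 of 12228 tested genes in that table (2.18%). They are Ncl (Snora75 and Snord82), Nop56 (5 genes, Snord57 and Snord110 among them), Nop58 (4, with Snord11 and Snord70), Gnl3 (3, with Snord19 and Snord69), Wdr43 (3, with Snord53 and Snord92), Ppan (2), Tsr1 (Snord91a) and Dkc1 (1). The hosts had a median log2 fold change of -0.60 and the 36 other members -0.69. The 44 genes lie on 18 chromosomes, with 7 on chromosome 1, the most on any.

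Other measures of the samples differed between genotypes too. The signal of the control probe sets for 18S ribosomal RNA, the mature product of the pathway, had a mean of 40.7 ± 16.2 on the Irf4+/+ arrays and of 142 ± 46.5, or 3.48-fold more, on the Irf4-/- arrays (SD, n = 5; exact two-sided permutation p = 0.00794, the smallest that 5 against 5 can give; adjusted p = 0.0317 over 4 array measures). This control signal is not a measure of ribosome content. The ratio of 3′ to 5′ signal of the Actb control was 1.15 ± 0.0259 and 1.10 ± 0.0227 (exact permutation p = 0.0238, adjusted p = 0.0476) and that of Gapdh 0.856 ± 0.0269 and 0.859 ± 0.0404 (exact permutation p = 0.873). The array median was 40.6 ± 2.23 and 42.7 ± 1.87 (exact permutation p = 0.175), and Pearson's r between arrays over all tested genes was 0.977 to 0.985 within and 0.938 to 0.945 between genotypes.

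Markers of B cells were bright in both genotypes, and all 7 tested were higher in Irf4-/- samples (summed signal 22473 to 26167 in Irf4+/+, 43818 to 48819 in Irf4-/-). All 10 tested markers of natural killer cells were higher as well, with a summed signal of 1329 to 1561 against 11580 to 16001. So were 4 of 7 tested markers of macrophages (459 to 537 against 1539 to 1928), with Cd14, C1qa, C1qb and C1qc below the brightness filter, and 3 of 5 of granulocytes (130 to 210 against 641 to 1075), with Camp and Ltf below it. Of T cell markers, 4 were tested, 1 lower and 2 higher (224 to 286 against 276 to 319), and Cd3d, Cd3e, Cd3g, Cd4 and Cd8b1 were below the filter. Of 4 tested dendritic cell markers 2 were lower and 2 higher (1023 to 1181 against 729 to 797), with Xcr1, Siglech and Cd209a below the filter. Erythroid cells and platelets had 0 of 2 tested markers called (158 to 265 against 121 to 286), and stromal cells 1 of 2, higher (130 to 166 against 218 to 266). The part of these cell types, of the 18S signal and of the Actb ratio in the results on the 44 genes was not tested.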

How the data were processed

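The deposited values are signal intensity on a linear scale, 1 per probe set and array, and MAS5 produced them, per the submitters' processing notes; the sources used here give neither its version nor its scaling target. The mean after trimming 2% at each end was 250 on every array, so arrays were taken as scaled. Biotin-labelled cRNA came from 6 ug of total RNA, per the labels. Of 45101 probe sets, 64 were controls, 34945 had 1 gene symbol, 932 several, and 9160 stay unnamed here; symbols were updated through a RefSeq table (GRCm38.p6), which held 34741 of the gene IDs.

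Computed here: log2(signal + 7.9), with the 20th percentile of the values as pseudocount; probe sets with a mean under 25.1, the 40th percentile of probe-set means, left out; the brightest probe set per gene; limma 3.58.1 (lmFit, eBayes with trend) in R 4.3.3 with genotype as its term; two-sided p adjusted over 12251 genes by Benjamini-Hochberg, with a threshold of 0.05. The procedure was tested on simulated data in which 50, 100 and 50 of 12251 genes were changed 1.5-, 2- and 4-fold. It recovered 62%, 80% and 100% of these, with 5 false calls. Far more genes, 5788, were called in the measured data, so the simulation does not match them in that respect. Array measures were compared by exact permutation. The precision is limited by the number of arrays, 5 per genotype. Alternatives were other pseudocounts, filters, scalings, variance models, a replicate block, other probe set choices and each array left out.

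The members and lists were chosen with earlier results of these data known. Values on every array are given for the largest and smallest change in each role group, for Ncl, Npm1 and Fbl, and for members not called or with probe sets of opposite sign; of the other ribosome biogenesis genes the 6 strongest falls and up to 8 rises are named. Protein sequences were not used here.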

Additional observations from a re-analysis of the deposited data

Results flagged for a closer look

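In 4 groups of 5 arrays, 1 array stood far from the other 4 by Dixon's criterion. Polr1a read 346.5 on Irf4-/- replicate 4 and 289 to 302 on the other Irf4-/- arrays, and Ddx18 read 1241 on the same array and 1051 to 1105 on the others. Dkc1 read 1972 on Irf4-/- replicate 2 and 2142 to 2202 on the others. Polr1b read 588.9 on Irf4+/+ replicate 5 and 645 to 667 on the others. The criterion was applied to 88 groups (44 genes in 2 genotypes), and chance alone gives about 1 in 20, or 4.4. All 4 genes kept their calls whichever array was left out.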

How the results depend on the processing

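The count of the 44 genes called lower was 42 or 43, and that called higher 0, under every alternative but 1. Without probe sets shared between transcripts, 38 of 40 tested genes were called lower. Npm1, Gar1, Tsr1 and Gnl3 had only shared probe sets and were not tested there, and Tcof1 and Polr1c were not called. The median ran from -0.71 (arrays centred on their median) to -0.60 (mean of all probe sets of a gene). Of 920 values for single members under an alternative, 910 kept direction and call; the exceptions lay in 4 genes. Tcof1 turned to 0.00 (adjusted p = 0.963) without shared probe sets, and Pes1 to 0.09 (adjusted p = 0.328) with the mean of its probe sets. Gtpbp4 lost its call under quantile normalization (adjusted p = 0.0669), without a variance trend (0.0658), and in 4 of the 10 fits that leave out an array. Polr1c gained one in 1 of those 10. With the replicate number as a block 42 members were called lower, Gtpbp4 losing its call (adjusted p = 0.0542). Deviations of same-numbered arrays from their genotype means were close to uncorrelated over all tested genes (-0.0403 to 0.0506). These correlations cannot settle whether the numbers pair the samples. The cytosolic ribosomal protein median moved to -0.12 without shared probe sets, when 22 of 45 genes were left to test. Pih1d1 turned to -0.41 (adjusted p = 0.52) there. Of 355 values for the 17 other named genes, 338 kept direction and call. Leaving out an array gave 42 to 43 members lower. The cause of these shifts was not tested. Signals near background are noisy on the log2 scale, which limits the dimmest further probe sets. That of Pes1, although dim, separated the genotypes without overlap.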
